A study of Arabidopsis thaliana with 17 samples.

Results

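Cytochrome P450 genes encode haem-containing monooxygenases, named CYP with a family number, a subfamily letter and a member number. The 234 genes described here are the nuclear protein-coding genes of Arabidopsis thaliana whose annotated symbol (219 genes) or synonym (15 genes) has that form, out of 27444 nuclear protein-coding genes in all. They fall into 45 families, 14 of which have 1 member. CUT&RUN was used, an assay that cuts out antibody-bound chromatin with a tethered nuclease. It measured histone H3 and H3K27me3, the trimethylation of histone H3 at lysine 27. Endosperm nuclei of 6N content came from F1 seeds of Col mothers and Ler fathers, 4 days after pollination, either fixed with formaldehyde (2 H3K27me3 and 2 H3 libraries) or unfixed (2 and 2). Leaf nuclei of 2N, 4N and 8N content came from 3-week-old Col plants, with 1 library for each antibody, and the labels do not say whether they were fixed. Fixed and unfixed endosperm share the cross, the stage and the nuclear sort, whereas leaf differs from endosperm in genotype, age, ploidy and tissue at once, so these cannot be told apart in any comparison of the tissues. Of the 17 samples, the 5 H3K27me3 libraries have a list of domains. The endosperm libraries also feed 1 table of reads assigned to a parent, which has no replicates. The IgG libraries, and trials on nuclei of seed coat and embryo, were not used here.

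H3K27me3 is set by Polycomb repressive complex 2 and marks genes that are kept silent in a given tissue or stage. Plant P450s make and break down hormones, build lignin, cutin and suberin, and produce defence compounds, often in single organs or after attack. Many stand in tandem arrays of recent duplicates, and some stand in clusters with other enzymes of the same pathway. Endosperm carries 2 maternal genomes and 1 paternal genome, and there H3K27me3 can differ between the parents' copies of a gene.

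H3K27me3 covered P450 genes more often than genes at large in every library. A gene is called marked in a list when domains cover at least 50% of its body. Among P450 genes, 95 and 95 were marked in the fixed endosperm lists and 102 and 83 in the unfixed endosperm lists, against 102 in leaf. These are 40.6%, 40.6%, 43.6% and 35.5% of P450 genes in the endosperm lists, and 43.6% in leaf. Of all nuclear protein-coding genes, 20.4% and 20.2% were marked in the fixed lists, 21.6% and 16.0% in the unfixed lists, and 20.3% in leaf. The median gene length was 2081 bp for P450 genes and 2078 bp for all genes. In a sort of many nuclei, a mark in fewer nuclei and a weaker mark in each cannot be told apart.

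A difference between fixed and unfixed endosperm was not detectable with these 4 libraries. The number of P450 genes marked averaged 95 ± 0 in fixed endosperm and 92.5 ± 13.4 in unfixed endosperm (SD, n = 2 each), a difference of 2.5 (p = 1 in a two-sided exact permutation test, in which 2 against 2 libraries cannot go below 0.333). Without unfixed replicate 2 the difference turned to -7. That library had shorter domains than the others. Its domains over P450 genes had a median length of 1350 bp, against 3000 and 3675 bp in the fixed lists and 2850 bp in the other unfixed list. It covered 20 P450 genes over their whole length, against 55, 56 and 57 in the same 3 lists and 61 in leaf. Nothing in the labels says that replicates came from separate plants, so this spread may be technical.

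In all 4 endosperm lists, 66 P450 genes were marked (28.2%), against 11.9% of all genes, and 41 at 80% cover. In at least 1 endosperm list, 123 were marked (52.6%), against 27.9% of all genes. A call in all 4 endosperm lists is stricter than a call in the 1 leaf list. A lower share in endosperm by that rule, here and below, thus does not show a difference between the tissues. Of the 66 genes, 60 were also marked in leaf, beside 2628 of the 3262 genes of all kinds marked in all 4 endosperm lists. Genes marked throughout endosperm were thus mostly marked in leaf too, among P450 genes and among all genes. These 60 are 25.6% of P450 genes, against 9.58% of all genes. Another 30 P450 genes were marked in leaf and in 1 to 3 endosperm lists (7.83% of all genes), and 27 in 1 to 3 endosperm lists but not in leaf (8.20% of all genes). No list marked 99 P450 genes, which are 42.3% of them, against 69.1% of all genes. In fixed replicate 1, CYP705A32 lay just inside the threshold at 50.4% and CYP71B16 just outside at 48.4%. In leaf, CYP94C1 lay just inside it at 56.0% and CYP79A2 just outside at 47.9%.

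P450 families differed widely. Of the 15 families of 5 or more members, which hold 177 genes, CYP702, CYP79 and CYP82 had every member marked in at least 1 endosperm list. CYP702 had 5 of 6 members marked in all 4 endosperm lists and 6 of 6 in leaf. CYP82, which includes enzymes of homoterpene and indole or coumarin defence compounds, had 4 of 5 and 5 of 5. CYP79, whose enzymes turn amino acids into aldoximes at the start of glucosinolate and camalexin synthesis, had 5 of 7 and 6 of 7. At the other end, none of the 9 CYP72 genes was marked in any list. Another 12 families, most of them small, also had no marked member, and the 13 families together hold 28 genes. CYP71, with 49 members the largest family, split by subfamily. In subfamily CYP71A 11 of 16 genes were marked in all 4 endosperm lists, and in subfamily CYP71B 5 of 33. In CYP94, whose best-known members oxidise the hormone jasmonoyl-isoleucine, 1 of 6 genes was marked in all 4 endosperm lists and 5 of 6 in leaf. List by list, 2 and 3 CYP94 genes were marked in the fixed lists and 2 and 2 in the unfixed lists.

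**Figure D1:**
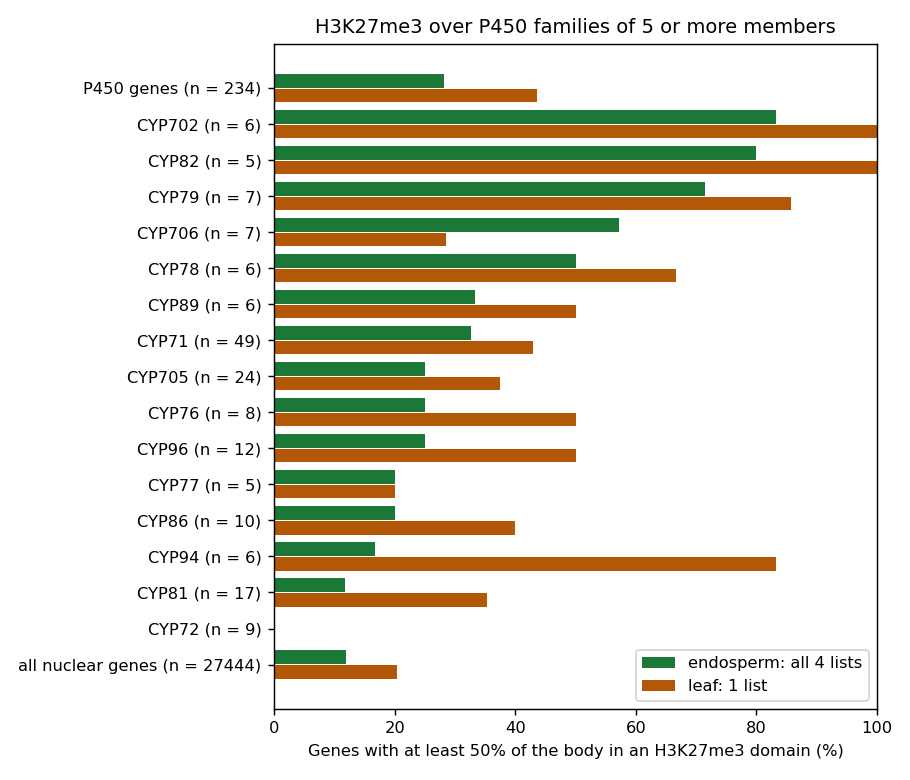
Share of genes marked by H3K27me3 (%) in all 4 endosperm lists (green) and in the leaf list (orange), for all P450 genes, for the 15 families of 5 or more members and for all nuclear protein-coding genes. CYP702 and CYP82 stand highest, CYP72 has no marked gene, and CYP706 is the family whose endosperm bar is the longer one by most (57.1% against 28.6% in leaf).

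Tandem arrays were the next level. With at most 3 other protein-coding genes between neighbours, 141 P450 genes form 39 clusters, 21 of them pairs. In 9 clusters, with 25 genes, every member was marked in all 4 endosperm lists, and in 10 clusters, with 34 genes, no member was marked in any list. In 20 clusters the members were in more than 1 state. Of the 102 pairs of neighbouring P450 genes in clusters, 32 and 33 were both marked in the fixed lists, 36 and 28 in the unfixed lists and 32 in leaf. As a share of pairs with any marked gene these are 58.3% to 66.7% in endosperm and 64.0% in leaf, whereas over all neighbouring genes the shares were 30.2% to 39.0% in endosperm and 31.9% in leaf. That share rises with the share of genes marked, which is higher for P450 genes. Pairs with only 1 gene marked were 17.6% to 20.6% of P450 pairs in endosperm and 17.6% in leaf. Over all neighbouring genes they were 17.1% to 19.0% and 21.0%. P450 pairs may have up to 3 other genes between them, whereas the pairs of all genes are adjacent. P450 genes in clusters were marked in all 4 endosperm lists in 31.2% of cases, and single P450 genes in 23.7%. In leaf the shares were 42.6% in clusters and 45.2% for single genes. Cluster members share domains and similar sequence and are not independent. The sources used here do not give how the authors' mapping treated reads that match several near-identical copies, so cover of such paralogues is uncertain.

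A covered array of 8 P450 genes lies on chromosome 4, from CYP702A2 to CYP702A6. All 8 (CYP702A2, CYP702A3, CYP705A1, CYP705A2, CYP705A3, CYP705A4, CYP702A5 and CYP702A6) were marked in all 5 lists. CYP705A4 was covered over 100% of its body in every list. CYP702A5 was covered over 100% in both fixed lists and in unfixed replicate 1, over 70.6% in unfixed replicate 2, and over 100% in leaf. CYP705A1, whose enzyme cleaves the triterpene arabidiol in roots, was covered over 100%, 100%, 100% and 74.9% in endosperm and over 100% in leaf. The leaf domain over CYP705A4, CYP702A5 and CYP702A6 spanned 31800 bp (chr4:8782951-8814750, TAIR10) and was the 5th longest domain of the leaf list. In fixed replicate 2, CYP705A1, CYP705A2 and CYP705A3 lay in 1 domain of 24300 bp (chr4:8750551-8774850).

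A second covered array, on chromosome 3, runs from CYP71A26 to CYP71A21. In leaf 1 domain of 19200 bp (chr3:17872201-17891400) held 5 of its 6 genes. CYP71A26 was covered over 100% in all 5 lists. CYP71A25 had 33.0% and 99.5% in the fixed lists, 75.6% and 67.0% in the unfixed lists, and 100% in leaf. CYP71A21, at the end of the array, had 6.83% and 0% in the fixed lists, 100% and 94.3% in the unfixed lists, and 15.6% in leaf. CYP71A21 was singled out after its values were seen. How many genes split in this way between fixed and unfixed lists was not counted, so no effect of fixation is drawn from it.

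In other arrays covered and bare copies stood side by side. Between CYP86C2 and CYP71B24 on chromosome 3, a run of 10 P450 genes, CYP71B21 and CYP71B22 were covered over 100% in all 5 lists. Their neighbour CYP71B20 had 0% in all 5 lists, and on the other side CYP71B23 had 85.0%, 49.8%, 35.2% and 46.9% in endosperm and 0% in leaf. CYP86C2, CYP71B19, CYP71B3 and CYP71B24 also had 0% in every list. In the CYP81H1 to CYP81F1 array on chromosome 4, CYP81F3, an indole glucosinolate hydroxylase, had 88.1% and 94.2% in the fixed lists, 88.1% and 88.1% in the unfixed lists and 82.0% in leaf. CYP81D8 in the same array had 0% in all 5 lists. CYP81D3 had 0%, 98.1%, 67.0% and 0% in endosperm and 0% in leaf, so its cover differed within the fixed and within the unfixed lists.

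The 8 genes from CYP72A7 to CYP72A15 on chromosome 3, among them the gibberellin oxidase CYP72A9, had 0% cover in every list. The 7 genes from CYP705A15 to CYP705A23, also on chromosome 3, had 0% in every list as well, but they had no read assigned to a parent for either antibody. Such genes number 32 among P450 genes (13.7%) and 2896 among all genes (10.6%). For 11 of the 32 an endosperm list still marked the gene, so a lack of parental reads did not keep a gene out of the domain lists. The cause of the empty stretches was not tested, and for these 7 genes a lack of mark and a lack of mappable reads cannot be told apart.

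**Figure D2:**
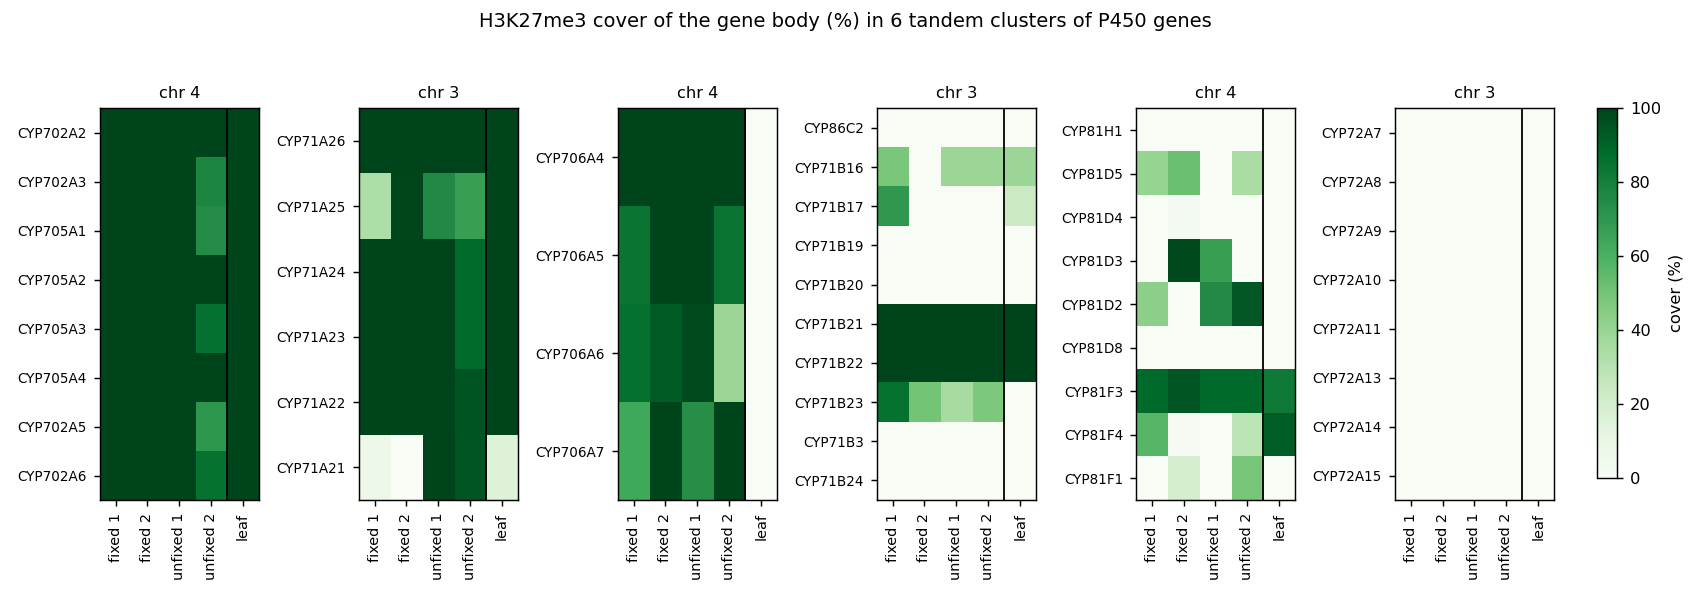
Cover of the gene body by H3K27me3 domains (%, white to dark green) for the genes of 6 tandem clusters in array order, in the 4 endosperm lists and, right of the black line, in leaf. The CYP702A2 to CYP702A6 array is dark throughout, the CYP706A4 to CYP706A7 array is dark in endosperm and white in leaf, CYP71B21 and CYP71B22 are dark beside the bare CYP71B20 and the paler CYP71B23, and the CYP72A array is white.

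The position of the paralogues went with their state in subfamily CYP76C, which includes linalool oxidases. CYP76C5 and CYP76C6 on chromosome 1 were covered over 100% in all 5 lists. CYP76C1, CYP76C2, CYP76C3 and CYP76C4 on chromosome 2 had 0% in all 5 lists. CYP76C7 on chromosome 3 had 66.3% in fixed replicate 2, 0% in the other endosperm lists and 100% in leaf.

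Cover by H3K27me3 domains did not end at the edges of marked P450 genes. In the 60 P450 genes marked in all 4 endosperm lists and in leaf, a stretch just before the middle of the body was covered over 97.4 ± 2.71% in endosperm (SD over 4 lists) and 100% in leaf. Centred 150 bp outside the gene, both sides averaged, cover was 77.4 ± 19.1% in endosperm and 90.3% in leaf. Centred 2850 bp away it was still 62.7% in endosperm and 63.0% in leaf, against 49.5% in endosperm and 52.2% in leaf for all genes of that state. Of 88 neighbours of these 60 genes that are not P450 genes, 40 (45.5%) were marked in all 4 endosperm lists and 48 (54.5%) in leaf, against 40.2% and 52.6% for neighbours of all genes of that state. Median lengths of the domains over P450 genes and of all domains were 3000 against 1800 bp and 3675 against 2250 bp in the fixed lists, 2850 against 1800 bp and 1350 against 1200 bp in the unfixed lists, and 3300 against 2250 bp in leaf. Long domains meet more genes, so a longer median is built into a choice by overlap.

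**Figure D3:**
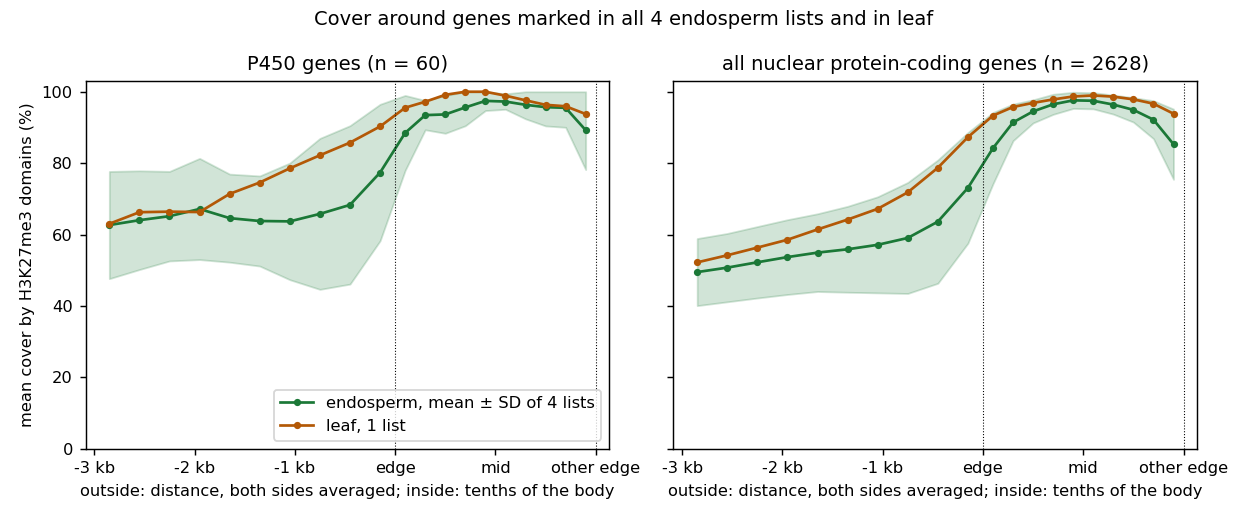
Mean cover by H3K27me3 domains (%) outside the gene edge (distance in kb, both sides averaged) and along the body in 10 equal parts, for the 60 P450 genes and the 2628 genes of all kinds marked in all 4 endosperm lists and in leaf. Green shows endosperm with the SD over 4 lists as a band and orange shows leaf. Cover is lower outside the gene than in the body in both tissues, with P450 genes ending higher at the left edge.

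Endosperm and leaf differed at a small number of P450 genes. The whole endosperm set but not leaf marked 6 P450 genes (2.56%, against 2.31% of all genes), and leaf but no endosperm list marked 12 (5.13%, against 2.94%). Among marked genes, the 6 were of 66 in all 4 endosperm lists, beside 634 of 3262 for all genes. The 12 were of 102 in leaf, beside 807 of 5583. Neither class was thus a larger part of the marked P450 genes than of marked genes at large. Without unfixed replicate 2 the 6 became 10, and with 80% cover asked for the 12 became 19. With 1 leaf library these differences have no replicate check in leaf, and no test was made. Domain cover is a threshold call by the authors' caller, so 0% does not show a lack of the mark.

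The largest excess in endosperm was in the CYP706A4 to CYP706A7 array on chromosome 4, whose 4 genes all had 0% cover in leaf. CYP706A4 was covered over 100% in every endosperm list. CYP706A5 had 83.9% and 100% in the fixed lists and 100% and 83.9% in the unfixed lists. CYP706A7 had 63.7% and 100% in the fixed lists and 73.5% and 100% in the unfixed lists. CYP706A6 had 85.5%, 92.8% and 97.7% in the same order, and 38.8% in unfixed replicate 2, so it missed the call in that list only. The other members of the family stand elsewhere. CYP706A3, which oxidises floral sesquiterpenes, had 100%, 100%, 100% and 89.4% in endosperm and 100% in leaf. CYP706A2 had 0%, 0%, 4.42% and 0% in endosperm and 63.2% in leaf.

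Defence and pollen genes made up part of the rest. CYP71B15, also called PAD3, which makes the last step to the phytoalexin camalexin, had 64.0% and 72.0% in the fixed lists, 95.5% and 64.0% in the unfixed lists and 0% in leaf. CYP71B13 had 95.9%, 74.0%, 80.1% and 74.0% in endosperm and 0% in leaf. CYP98A8, which hydroxylates phenolamides of the pollen coat, had 27.9%, 100%, 75.9% and 84.0% in endosperm and 0% in leaf. CYP74B2, the hydroperoxide lyase of green leaf volatiles, had 79.4%, 54.7%, 83.9% and 49.9% in endosperm and 0% in leaf. CYP96A13 had 100% in 3 endosperm lists, 32.5% in unfixed replicate 2 and 2.72% in leaf, and CYP71B12 had 100%, 80.7%, 67.3% and 0% in endosperm and 0% in leaf. Both fell below the call in unfixed replicate 2.

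On the leaf side, CYP710A2, a sterol desaturase, had 0% in all 4 endosperm lists and 100% in leaf, and so did CYP71B31, a linalool oxidase, and CYP94D1. CYP86A7, a fatty acid hydroxylase, had 0%, 9.12%, 0% and 0% in endosperm and 79.1% in leaf. CYP89A6 had 0%, 0%, 6.49% and 32.6% in endosperm and 93.4% in leaf. CYP714A2, which inactivates gibberellins, had 44.8% in fixed replicate 1, 0% in the other endosperm lists and 85.1% in leaf. CYP71B5 had 0% in endosperm and 81.1% in leaf. CYP71B31 and CYP71B5 had no endosperm read assigned to a parent for either antibody. CYP94D1 had 5 H3K27me3 reads from Col and none from Ler, and 1 H3 read from Col against 2 from Ler. Read counts thus give no check of the 0% in endosperm for CYP71B31, CYP71B5 and CYP94D1. CYP76C7, CYP76G1 and CYP83A1 also had more cover in leaf, but each passed 50% in at least 1 endosperm list. CYP83A1, which forms the core of aliphatic glucosinolates, had 51.4% and 0% in the fixed lists, 58.9% and 0% in the unfixed lists and 100% in leaf.

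**Figure D4:**
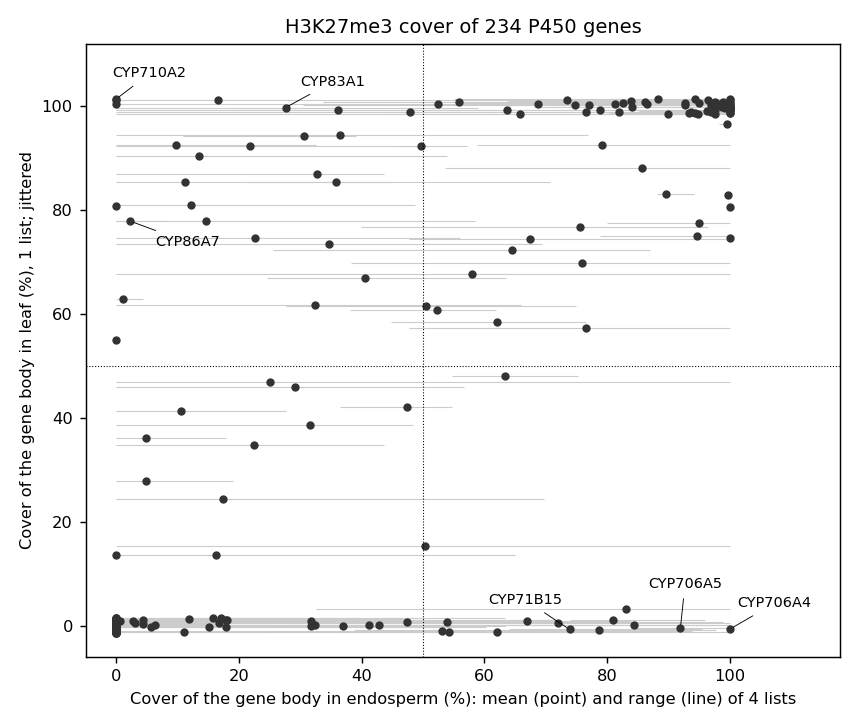
Cover of the gene body in endosperm (%, mean as a point and range of 4 lists as a line) against cover in leaf (%, 1 list, jittered) for 234 P450 genes, with dotted lines at 50%. Most genes sit at both corners of the diagonal, CYP706A4, CYP706A5 and CYP71B15 lie at the lower right, and CYP710A2 and CYP86A7 lie at the upper left.

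The genes were then ordered by role, with 84 P450 genes on 12 lists. The counts below stand beside 11.9% of all genes marked in all 4 endosperm lists, 27.9% in at least 1 and 20.3% in leaf. Over all P450 genes these shares were higher, at 28.2%, 52.6% and 43.6%. The lists are short, and no list was tested against these shares. Most of the camalexin and glucosinolate genes were marked in at least 1 endosperm list, and most in leaf. Of 5 genes for camalexin and related indole or coumarin compounds, 4 were marked in all 4 endosperm lists and 4 in leaf. CYP71A13, which supplies the nitrile for camalexin, had 100%, 100%, 100% and 98.2% in endosperm and 95.6% in leaf. CYP82C4, which makes the coumarin sideretin, had 100%, 100%, 100% and 92.2% in endosperm and 100% in leaf. Of 11 glucosinolate genes, 5 were marked in all 4 endosperm lists, 8 in at least 1 and 8 in leaf. CYP79F1, the entry enzyme for aliphatic glucosinolates, had 65.6%, 96.6%, 100% and 53.2% in endosperm and 100% in leaf. CYP79B3, the entry enzyme for indole glucosinolates, had 100% in all 5 lists. CYP83B1, which acts next in the indole branch, had 0% in all 5 lists. Of 9 glucosinolate enzymes that are not P450s, 2 were marked in all 4 endosperm lists and 3 in leaf.

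In triterpene metabolism all 7 P450 genes of that list were marked in leaf and in at least 1 endosperm list, and 5 in all 4. CYP705A5 and CYP708A2 belong to the thalianol cluster of chromosome 5. CYP705A5 had 100% in all 5 lists, and CYP708A2 had 100%, 100%, 100% and 59.8% in endosperm and 100% in leaf. In the marneral cluster, CYP71A16 had 83.8%, 100%, 80.2% and 64.0% in endosperm and 100% in leaf, and CYP705A12 had 88.7%, 64.5%, 56.4% and 0% in endosperm and 100% in leaf. Of 12 triterpene cyclases, the enzymes that make the skeletons, 8 were marked in all 4 endosperm lists and 8 in leaf. CAS1, the cyclase of general sterol synthesis, had 0% in all 5 lists.

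Of the P450 genes of general metabolism, 5 of 7 phenylpropanoid and flavonoid genes, 6 of 9 brassinosteroid genes and 3 of 8 sterol and carotenoid genes were marked in no list. As given above, no list marked 69.1% of all genes and 42.3% of P450 genes. Of the 7 phenylpropanoid and flavonoid P450 genes none was marked in all 4 endosperm lists or in leaf. CYP73A5 (C4H), the first P450 of lignin and flavonoid synthesis, had 0% in every list, and CYP98A3, the next hydroxylase, had 17.3% in fixed replicate 1 and 0% elsewhere. Of 20 other enzymes of these pathways, 2 were marked in all 4 endosperm lists (10%, against 11.9% of all genes) and 2 in leaf (10%, against 20.3%). Of 9 brassinosteroid genes none was marked in all 4 endosperm lists and 3 in leaf. CYP85A2, CYP90A1 and CYP90B1, which act along the synthesis route, had 0% in every list. CYP90C1 had 24.1%, 70.7%, 27.1% and 21.1% in endosperm and 85.8% in leaf. The 6 other brassinosteroid enzymes and both P450 reductases, which pass electrons to P450s, were marked in no list. Among 8 sterol and carotenoid genes, 2 were marked in all 4 endosperm lists and 3 in leaf, all of them CYP710A genes. CYP710A3 had 100%, 100%, 100% and 90.4% in endosperm and 100% in leaf.

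In hormone breakdown the paralogues split. Of the 4 abscisic acid hydroxylase genes, CYP707A4 had 100%, 100%, 100% and 78.8% in endosperm and 74.9% in leaf. CYP707A2, known for lowering abscisic acid in seeds, had 81.6%, 84.7%, 96.4% and 39.8% in endosperm and 76.6% in leaf. CYP707A1 had 0% in every list, and CYP707A3 had 67.0% in unfixed replicate 1 and 0% elsewhere. Of 8 genes of abscisic acid synthesis, 1 was marked in all 4 endosperm lists (12.5%, against 11.9% of all genes) and 3 in leaf (37.5%, against 20.3%). For gibberellin, 1 of 5 P450 genes was marked in all 4 endosperm lists and 2 in leaf. CYP714A1, which inactivates gibberellins, had 100%, 68.6%, 84.3% and 93.1% in endosperm and 100% in leaf, while CYP88A3 and CYP88A4, which make them, had 0% in every list. Of 18 other gibberellin enzymes, 5 were marked in all 4 endosperm lists and 10 in leaf. Of 7 cytokinin, jasmonate and strigolactone genes, 3 were marked in all 4 endosperm lists and 5 in leaf. CYP735A2, which makes trans-zeatin cytokinins, had 100%, 100%, 100% and 80.1% in endosperm and 100% in leaf. CYP711A1, the MAX1 enzyme of strigolactone synthesis, had 0% in every list.

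Barrier and size genes were mixed. Of 11 genes for cutin, suberin, wax and the pollen wall, 3 were marked in all 4 endosperm lists and 4 in leaf. The suberin genes CYP86A1 and CYP86B1 were among the 3. CYP86B1 had 100% in every endosperm list and 73.5% in leaf, and CYP86A1 had 100%, 100%, 100% and 90.5% in endosperm and 100% in leaf. The third was CYP96A15, an alkane hydroxylase of stem wax, with 100%, 100%, 100% and 97.9% in endosperm and 100% in leaf. The pollen wall genes CYP703A2 and CYP704B1 had 0% in every list. Of the 6 CYP78A genes, which promote organ and seed growth, 3 were marked in all 4 endosperm lists and 4 in leaf. CYP78A5 (KLU), which acts in the maternal tissue to enlarge seeds, had 100% in all 5 lists, while CYP78A6 and CYP78A9 had 0% in all 5. Of 4 genes of terpenoid volatiles, 1 was marked in all 4 endosperm lists and 2 in leaf. CYP82G1, which makes a homoterpene volatile, had 100%, 100%, 100% and 87.8% in endosperm and 100% in leaf.

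Read counts in endosperm gave a measure apart from the domain calls, although from endosperm libraries of the same series. The level of a gene is the log2 of H3K27me3 over H3 reads of both parents, each scaled to its total (12189039 reads for H3K27me3 and 7638577 for H3). Its standard error (SE) is the counting SE widened by 2.02, which covers counting error and local clumping within the pooled libraries and no variation between replicates. Among 174 P450 genes with at least 40 reads for each antibody, 44 (25.3%) were at least 2-fold above H3 with a 95% interval beyond 0, against 8.84% of all genes. Another 7 (4.02%) were at least 2-fold below, against 9.58% of all genes. Of the 44, 41 (93.2%) were genes that all 4 endosperm lists mark, and of the 1748 genes of all kinds so called, 1441 (82.4%) were.

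The highest level was that of CYP96A3, with 1664 H3K27me3 and 204 H3 reads, which gives 2.35 ± 0.22. CYP708A3 followed at 2.12 ± 0.21, CYP96A5 at 2.05 ± 0.18, CYP86B1 at 2.00 ± 0.35, CYP71B22 at 1.99 ± 0.18 and CYP707A4 at 1.87 ± 0.41. Those 6 do not differ beyond their errors, and all 6 were marked in all 5 lists. The lowest was CYP705A6, with 65 H3K27me3 and 140 H3 reads, at -1.78 ± 0.44. CYP72A15 (-1.49 ± 0.41), CYP89A3 (-1.29 ± 0.33), CYP72A9 (-1.17 ± 0.30), CYP703A2 (-1.14 ± 0.51) and CYP721A1 (-1.09 ± 0.41) came next. These 6 had 0% cover in every list. Within the CYP706 array, marked in endosperm and bare in leaf, CYP706A5 (1.19 ± 0.28) and CYP706A6 (1.47 ± 0.43) were called above H3, and CYP706A4 (0.75 ± 0.37) and CYP706A7 (0.68 ± 0.17) were not. CYP710A2, covered in leaf alone, stood at -0.55 ± 0.44, close to -0.53, the median of all genes that no list marks.

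The parents were compared last. Col, the mother, contributed 81.2% of the parental H3 reads and 90.4% of the parental H3K27me3 reads. Whether nuclei of maternal tissue in the sort add to these shares was not tested, and the files hold no transcripts by which the tissue could be checked. For each gene, Col reads per Ler read in H3K27me3 were divided by the same quotient in H3, so that dosage and mapping preference shared by both antibodies cancel. The log2 of this, less the median of 0.91 over genes that no list marks, is called the parental ratio. Above 0 it points toward Col. It was available for 162 P450 genes with at least 40 reads for each antibody and at least 10 Ler reads in H3, with the counting SE widened by 1.58. A call needed a ratio of 2-fold or more whose 95% interval excluded 0. Of the 162, 22 (13.6%) were called toward Col, against 8.32% of all genes, and 3 (1.85%) toward Ler, against 3.04% of all genes. Without the centring, 81 P450 genes (50.0%) were called toward Col, against 37.5% of all genes, and none toward Ler, against 0.106%. With the counting SE alone 37 (22.8%) were called toward Col, against 16.0% of all genes, and 6 (3.70%) toward Ler, against 6.57%. All parental values are single values of 1 pool.

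Calls toward Col fell in genes that all 4 endosperm lists mark for 16 of 22 P450 genes, beside 751 of 1497 genes of all kinds. Of the 50 P450 genes that all 4 endosperm lists mark and that have a ratio, 16 (32.0%) leaned to Col by this call, against 35.1% of all genes so marked, and none toward Ler, against 0.608%. Their median ratio was 0.81 (quartiles 0.42 and 1.26), and that of all genes so marked was 0.94 (quartiles 0.40 and 1.54). P450 genes so marked were thus near the background for that state. The 60 P450 genes marked in all 4 endosperm lists and in leaf had 5.14 H3K27me3 reads per H3 read on Col copies and 1.39 on Ler copies. In the 99 marked in no list the values were 1.35 on Col copies and 0.733 on Ler copies. Over all genes of these 2 states the values were 4.49 on Col and 1.34 on Ler copies when covered, and 1.24 and 0.679 when bare. The states were set by H3K27me3 domains, and Col gave most of the parental H3K27me3 reads. A step between covered and bare genes is thus built into the choice, and no conclusion is drawn from it. All these values are sums without a replicate error.

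The largest ratio with reads in all 4 columns was that of CYP86C4, with 152 H3K27me3 reads from Col against 4 from Ler, and 66 H3 reads from Col against 31 from Ler, at 3.10 (95% interval 0.75 to 5.44). CYP86C4 had 0% cover in all 5 lists. CYP96A5, with 1961 H3K27me3 reads from Col against 78 from Ler, and 222 H3 reads from Col against 87 from Ler, was at 2.39 ± 0.39 (widened SE). CYP702A6 was at 2.36 ± 0.48, CYP705A4 at 2.15 ± 0.50 and CYP71A25 at 2.14 ± 0.66, all 3 in the covered arrays described above. CYP81D8 had 60 H3K27me3 reads from Col and none from Ler, and 54 H3 reads from Col against 16 from Ler. With 3 reads in place of 0 its ratio was at least 3.16-fold toward Col, a bound without the counting error of its other 3 values, and it was not called.

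Copies of 1 array were not all called alike. In the CYP702A2 to CYP702A6 array, CYP702A3 (1.19 ± 0.52), CYP705A4 and CYP702A6 were called toward Col. CYP705A3, with 914 H3K27me3 reads from Col against 80 from Ler, and 193 H3 reads from Col against 25 from Ler, was at -0.33 ± 0.55. CYP702A2 (0.80 ± 0.41), CYP702A5 (0.57 ± 0.53), CYP705A2 (0.54 ± 0.68) and CYP705A1 (0.42 ± 0.71) lay between and were not called. A near-identical copy elsewhere in the array can take up reads, which was not measured. In the CYP706 array, CYP706A5 was at 1.66 ± 0.61 and called toward Col, while CYP706A4 (0.82 ± 0.74), CYP706A6 (1.49 ± 1.02) and CYP706A7 (0.94 ± 0.44) were not. The errors of these CYP706 values overlap, so the calls do not show a difference in ratio between the copies. Among genes with a role, CYP707A2 (1.61 ± 0.61), CYP735A2 (1.16 ± 0.49), CYP710A3 (1.87 ± 0.77) and CYP705A5 (1.93 ± 0.80) were called toward Col.

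The 3 genes called toward Ler had little in common. CYP705A25 had 124 H3K27me3 reads from Col against 24 from Ler, and 130 H3 reads from Col against 15 from Ler, a ratio of -1.64 ± 0.79. CYP96A1 was at -1.59 ± 0.75 and CYP81H1 at -1.15 ± 0.51. CYP705A25 and CYP81H1 had 0% cover in every list. CYP96A1 had 100% and 47.7% in the fixed lists, 100% and 58.2% in the unfixed lists, and 58.4% in leaf. CYP83A1 (-1.45 ± 0.81), CYP98A3 (-1.12 ± 0.67) and CYP711A1 (-1.10 ± 0.87) were next lowest and were not called.

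**Figure D5:**
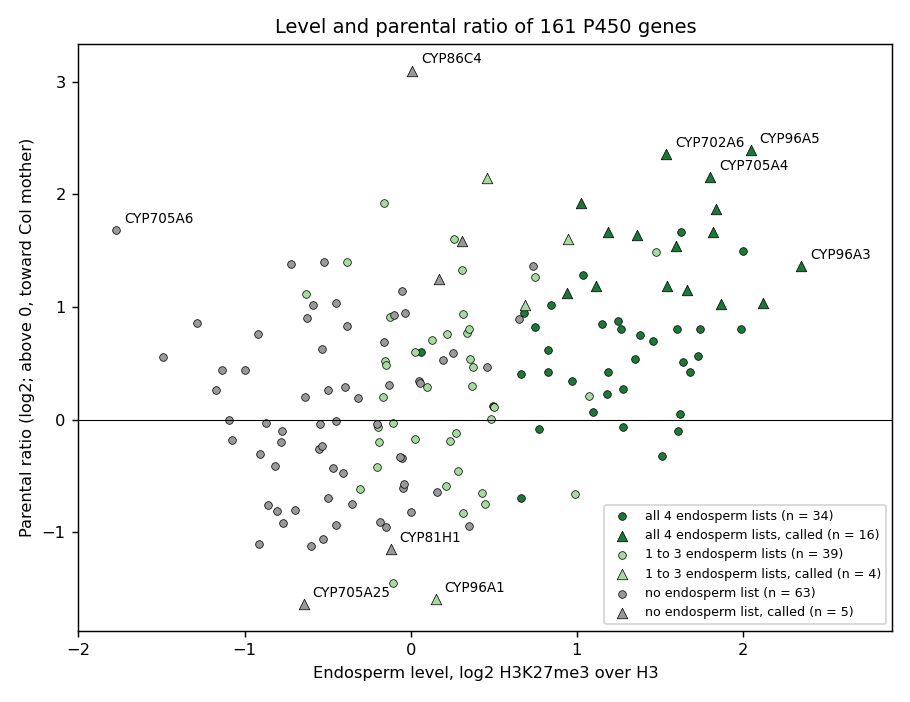
Level in endosperm (log2 H3K27me3 over H3) against parental ratio (log2, above 0 toward the Col mother) for 161 P450 genes with reads in all 4 columns, coloured by the number of endosperm lists that mark the gene, with triangles for genes called toward a parent. The 16 called genes marked in all 4 lists lie at the upper right, CYP86C4 stands alone at the top, and the 3 genes called toward Ler lie at the bottom.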

How the data were processed

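The authors deposited 1 list of H3K27me3 domains for each H3K27me3 library, with a significance value per domain, a p-value or q-value (the sources do not say which), and an enrichment score on a log scale of unstated base, used here only to rank domains within a list. They also deposited a table of bins of 150 bp that holds whole-number counts of reads, with Col and Ler columns for H3K27me3 and H3. The sources used here give neither the libraries it pools nor the rule that assigned reads to a parent. Per the submitters' processing notes, the build was TAIR10 and the tools were SICER, Bowtie2, deepTools 2.0, Picard and Trim Galore. The files do not show the depth of single libraries. Positions of domains are TAIR10, counted from 1.

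P450 genes and gene lists were chosen with earlier results of these data known. Genes came from the TAIR10.1 annotation table, taken to share nuclear coordinates with TAIR10. It holds no strand or sequence, so none is printed. Of the listed names, CYP74A and UGT74C1 did not match, and the gene lists' members were otherwise found by symbol or synonym. Genes were named if they were on a role list, were among the 10 with the largest difference in cover between tissues in either direction, among the 6 highest or lowest by level or parental ratio, in the 5 largest tandem clusters, or nearest the 50% threshold. Outside this rule, CYP706A2, CYP706A3, CYP71A21, CYP71A26, CYP76C2, CYP76C4, CYP76C5 and CYP76C6 were chosen after their values were seen, as were the cluster members named under the other observations. Counts were summed over bins whose midpoint lies in the gene, with 0.5 added to each. The SE was widened by the spread between the left and right parts of gene bodies, relative to counting error, in genes marked in no list (8914 for the ratio, 10399 for the level). Fixed and unfixed lists were compared by a two-sided exact permutation test. Only the call of the parental ratio was tried on simulated data. There the simulated spread was handed to the SE, so the widening itself was not tested. Python 3.11.15, numpy 2.4.6 and pandas 2.3.3 were used. Alternatives were other cover thresholds, domain sets, libraries, read minimums, pseudocounts, centrings and spreads.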

Additional observations from a re-analysis of the deposited data

Results flagged for a closer look

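In each case below 1 endosperm library lies apart from the other 3 by a gap that is most or all of the group's range. Chance flags about 1 in 20 groups, and cover that sits at 0% or 100% in 3 libraries is flagged by any other value in the remaining one. Of 123 counts and cover values examined (104 of them genes), 33 were flagged, and unfixed replicate 2 is the library apart in 21 of these. Its domains were shorter, with values given above, and whether that length accounts for the flags was not tested.

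Full cover was reached by 20 P450 genes in unfixed replicate 2, against 55 to 57 in the other lists. Unfixed replicate 2 also had the lowest number of marked genes in CYP706 (4, against 5 in the others) and in CYP78 (3, against 4). In the CYP702 and CYP705A array of chromosome 4 its cover was 99.96% for CYP702A2, 77.34% for CYP702A3, 70.57% for CYP702A5, 85.15% for CYP702A6, 74.87% for CYP705A1 and 85.4% for CYP705A3, against 100% in the other 3 endosperm lists. It was likewise alone below 100% for CYP706A3 (89.35%), CYP707A4 (78.82%), CYP708A2 (59.78%), CYP708A3 (98.95%), CYP710A3 (90.39%) and CYP71A13 (98.17%). The same held for CYP735A2 (80.13%), CYP82C4 (92.22%), CYP82G1 (87.85%), CYP86A1 (90.48%), CYP96A13 (32.52%) and CYP96A15 (97.95%). Of these named genes, CYP96A13 lost the call in that library.

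Other libraries were highest for the rest. Unfixed replicate 1 had 6 marked CYP702 genes, against 5 in the others, and was alone above 0% for CYP706A2 (4.42%), CYP707A3 (67.03%) and CYP76G1 (53.97%). Fixed replicate 2 had 3 marked CYP94 genes, against 2. It was alone above 0% for CYP76C7 (66.33%) and CYP86A7 (9.124%), and highest for CYP81F3 (94.21%, against 88.09%) and CYP90C1 (70.74%, against 21.08% to 27.11%). Fixed replicate 1 had 5 marked CYP82 genes, against 4, and was alone above 0% for CYP714A2 (44.84%) and CYP98A3 (17.31%).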

How the results depend on the processing

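Of 84 recomputed values, 67 stayed within the limits set for a change, 16 moved and 1 reversed. Those limits were wide. P450 genes called above H3 went from 44 to 65 when levels were taken relative to the median of genes that no list marks. The same setting took all genes so called from 1748 to 3797. Fixed minus unfixed was judged by its direction and significance alone, so its size could change. With at least 80% cover asked for, 41 P450 genes were marked in all 4 endosperm lists, 37 in both tissues and 19 in leaf alone. With any overlap, 10 were in the class of all endosperm lists without leaf, and 6 in leaf alone. With 1000 bp added on both sides of the gene, a setting chosen after seeing the data, the class of endosperm without leaf held 3. With the fixed lists only it held 13, and with the unfixed lists only leaf alone held 20. Leaving out 1 endosperm library gave 68 to 77 genes marked in all remaining lists, 62 to 67 in both tissues, 6 to 10 in endosperm and not leaf (10 without unfixed replicate 2) and 12 to 16 in leaf alone. Fixed minus unfixed ran between -7 (without unfixed replicate 2) and 12 (without unfixed replicate 1). With the replicate number as a block it was 2.5, with differences of -7 and 12 (exact sign-flip p = 1, two-sided; the smallest is 0.5), but same-numbered libraries did not deviate together (r = -0.03 across 27444 genes). For the parental ratio, minimums of 80 reads and 20 Ler reads left 1 gene toward Ler. Without centring the calls were 81 toward Col and 0 toward Ler, with a median of 1.71 among genes marked in all 4 lists. Centring on the overall Col:Ler ratio gave 9 toward Ler, and the counting SE alone 37 toward Col and 6 toward Ler. The causes were not tested. The setting with 1000 bp upstream was not run, because the gene table used here has no strand. Under 40 reads, as in 60 P450 genes, no level is given.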

Other observations

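P450 genes on chromosomes 1 and 4 were marked in all 4 endosperm lists in 39.1% of 46 and 42.2% of 45 cases, and those on chromosomes 2, 3 and 5 in 16.7% of 36, 17.2% of 64 and 27.9% of 43. In leaf the shares were 54.3% and 48.9% on chromosomes 1 and 4, and 36.1%, 32.8% and 48.8% on chromosomes 2, 3 and 5. Shares of all genes by chromosome were not computed, so no pattern by chromosome is drawn from these values. Whole arrays weigh on them, such as the covered CYP702A2 to CYP702A6 array on chromosome 4 and the bare CYP72A array on chromosome 3. The clusters with every member marked in all 4 endosperm lists also included CYP82C2 to CYP82C4, CYP79F1 with CYP79F2, CYP710A3 with CYP710A4, CYP71A19 with CYP71A20, CYP71A27 with CYP71A28 and CYP77B1 with CYP71A18. In the 7-gene array from CYP71B25 to CYP71B37 on chromosome 3, CYP71B25 alone was marked in all 4 endosperm lists, with 97.6% and 79.3% in the fixed lists, 70.2% and 61.0% in the unfixed lists, and 100% in leaf.

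Role-list P450 genes were marked in all 4 endosperm lists in 28 of 84 cases (33.3%) and in leaf in 44 (52.4%), and the other P450 genes in 38 of 150 (25.3%) and 58 (38.7%). Among enzymes of the same pathways that are not P450s, NCED3, which makes the precursor of abscisic acid, had 100% in all 4 endosperm lists and 0% in leaf, and GA3OX1, which makes active gibberellin, had 100%, 100%, 100% and 86.5% in endosperm and 0% in leaf. NCED2 had 0% in endosperm and 100% in leaf.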
